A study of Mus musculus with 30 samples.

Results

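The genes described here are Trp53, which encodes the transcription factor p53, and 9 genes that p53 is known to activate: Mdm2, Ccng1, Bbc3, Btg2, Bax, Gdf15, Sesn2, Phlda3 and Zmat3. They were taken by symbol as a given list of 10 genes, out of 49492 to 56691 genes in 4 bulk RNA-seq count tables and out of the genes of 2 single-cell libraries. All 10 were present in each of the 30 samples' files, and all 10 passed the filter on low counts in each bulk table. All samples are labelled as primary cardiac fibroblasts (CFs) of WT mice, though markers of other cell types were also present, and the 28 bulk libraries formed 14 groups of n = 2. In 1 table, CFs had been kept in culture for 3 days after isolation from neonatal mice (postnatal days 1 to 3) or from mice aged 3, 12 or 24 months. In another, cells of neonatal, 3-month and 18-month mice were collected 3 days after receiving MGT (Mef2c, Gata4 and Tbx5, the transcription factors used to turn fibroblasts towards cardiomyocytes) or LacZ, a control gene. Another table compared neonatal cells overexpressing Nr4a3 (OENr4a3), an orphan nuclear receptor, with control cells (OECtrl) at day 10. The last compared MGT cells of 3-month mice carrying a short hairpin RNA against Nr4a3 (shNr4a3) with MGT cells carrying a non-targeting hairpin (shNT) at day 7. The single cells were MGT-treated cells of 24-month mice and of neonatal mice, 1 library each. The labels do not say whether replicates came from separate animals, so p-values measure the spread between these libraries, which may be technical.

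p53 is held at a low level in unstressed cells because Mdm2, an E3 ubiquitin ligase, marks it for degradation, and Mdm2 is itself a p53 target, which closes a negative feedback loop. Because p53 is controlled mainly at the protein level, its activity is usually read from the RNA of its targets and not from Trp53 RNA. The targets fall into several roles: Ccng1 (cyclin G1) and Btg2 act on proliferation, Bbc3 (PUMA) and Bax on the mitochondrial pathway of cell death, Gdf15 is a secreted cytokine of the TGF-beta family, Sesn2 (sestrin 2) restrains mTORC1 signalling under stress, Phlda3 opposes AKT signalling, and Zmat3 is an RNA-binding zinc finger protein. Several of them have other inputs, such as immediate early signals for Btg2 and the integrated stress response (the ATF4 programme of amino acid and unfolded-protein stress) for Gdf15 and Sesn2.

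A pair of promoters is shown because their genes, Ccng1 and Btg2, parted ways in some of the comparisons that follow. In other comparisons both genes rose or both fell. The part of the marked letters in these changes was not tested. Of the 10 genes, 9 had a promoter window in the RefSeq annotation of GRCm38.p6, with 12 windows in all, each from 250 bases before the annotated start to 50 bases after it. The Ccng1 window lies at chr11:40755237-40755536 on the minus strand. Its capitals mark a match to the p53 consensus (a pair of half-sites with no spacer) with 1 mismatch outside its core letters, which lies 195 to 176 bases before the start. The Btg2 window lies at chr1:134079106-134079405 on the minus strand, and its capitals mark a cAMP response element, TGACGTCA, which lies 166 to 159 bases before the start.
Ccng1: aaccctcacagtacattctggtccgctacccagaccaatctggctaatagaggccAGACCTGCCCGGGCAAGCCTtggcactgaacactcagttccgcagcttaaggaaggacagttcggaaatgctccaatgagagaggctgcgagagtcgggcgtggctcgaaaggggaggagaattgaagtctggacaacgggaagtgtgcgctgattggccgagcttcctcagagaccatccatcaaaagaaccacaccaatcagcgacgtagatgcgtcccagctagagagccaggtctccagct
Btg2: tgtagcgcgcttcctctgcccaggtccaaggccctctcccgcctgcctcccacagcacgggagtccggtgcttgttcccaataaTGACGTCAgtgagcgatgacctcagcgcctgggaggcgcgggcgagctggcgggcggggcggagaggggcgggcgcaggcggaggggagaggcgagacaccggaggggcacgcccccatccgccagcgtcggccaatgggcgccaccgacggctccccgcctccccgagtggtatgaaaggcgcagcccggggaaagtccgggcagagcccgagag
The p53 consensus with up to 1 mismatch was found in 0.067% of 32851 windows of the same length over the genome, and with up to 2 mismatches in 0.326%. Among the members' windows, only that of Ccng1 held it. TGACGTCA was found in 1.79% of all windows and, among the members, only in that of Btg2. The NBRE, AAAGGTCA, the element that receptors of the Nr4a family bind as monomers, was in 1.51% of all windows and in none of the members' windows. The E-box CACGTG, present in 7.15% of all windows, was in those of Bbc3, Bax, Gdf15 and Trp53. Both strands were searched, matches are descriptions of letters and not of binding, and elements outside these windows, such as those in first introns, were not searched. Inside the windows, p53 sites with a spacer, a changed core letter or more than 2 mismatches were not searched either.

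In the GENCODE annotation of GRCm38 all 10 are protein-coding genes. Trp53 lies at chr11:69580359-69591873 (plus strand), Ccng1 on the same chromosome at chr11:40748552-40755311 (minus), Mdm2 at chr10:117688875-117710758 (minus), Gdf15 at chr8:70629393-70632456 (minus) and Zmat3 at chr3:32334792-32366014 (minus). Btg2 at chr1:134075170-134079120 (minus) and Phlda3 at chr1:135766119-135769136 (plus) share a chromosome, and chromosome 7 holds Bbc3 at chr7:16308393-16318205 (plus) and Bax at chr7:45461697-45466898 (minus). Sesn2 lies at chr4:132492032-132510501 (minus). Bax overlaps Gm45808, and Sesn2 overlaps Gm12981, on the same strand, and Trp53 has a processed pseudogene on chromosome 17, so reads of these 3 genes could have been split in counting. Gene starts equalled those of GRCm38 for 99.6% of shared genes in the MGT and LacZ table, but for 2.85% in the table of CF ages and 2.88% in the overexpression table, so the gene models counted there may differ from these.

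Library totals were 17.3e6 to 22.3e6 counts for untreated CFs, 14.5e6 to 18.8e6 for MGT and LacZ cells, 14.3e6 to 18.4e6 for overexpression and 39.7e6 to 43.4e6 for knockdown. No replicate pair held identical values. The spread between replicates, as chi-square per degree of freedom over genes (1 for pure counting noise), was 2.29 to 6.66 in 10 groups. It was 18.9 in LacZ-treated 3-month cells and 15.4 in OECtrl, whose replicates stood further apart. In the knockdown groups it was 12.2 (shNT) and 24.2 (shNr4a3). Beyond counting noise this measure grows with depth, and the knockdown libraries were the deepest, so these values cannot be set directly beside the others. Levels are counts scaled to library size (CPM, with TMM factors), and a gene is called changed at an adjusted p under 0.05. Ages also differed in Xist, the RNA of the inactive X chromosome: in CFs it was 1277 and 1288 CPM in neonatal, at most 0.479 in 3-month, at most 0.448 in 12-month and 775 and 833 CPM in 24-month libraries. Among MGT and LacZ cells, Xist was 439.8 to 548 CPM in neonatal and at most 0.568 CPM in adult libraries. For comparisons across these levels, sex and age cannot be told apart. Between 12 and 3 months both groups were under 1 CPM.

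Per kilobase of gene, Ccng1 had the highest level of the 10 in all 14 bulk groups. In CFs it stood at 193 ± 1.86, 134 ± 3.61, 219 ± 8.06 and 186 ± 9.44 CPM per kb (mean ± SD, n = 2) in neonatal, 3-, 12- and 24-month cells. Bbc3 was lowest in all CF, MGT and LacZ groups, with 2.89 ± 0.44 CPM per kb in 3-month CFs. Phlda3, Bax, Btg2, Mdm2 and Trp53 filled the next ranks in 3-month CFs at 69.2 ± 4.0, 59.7 ± 1.87, 44.2 ± 0.51, 33.8 ± 1.15 and 27.4 ± 1.09 CPM per kb. Below them, Sesn2 (10.5 ± 0.59) and Zmat3 (9.82 ± 0.33 CPM per kb) were not separated by more than their spread. In the knockdown table Zmat3 took the lowest rank, and in the overexpression table Gdf15 did. Mean Trp53 and Zmat3 were 24.55 and 22.7 CPM in shNT cells, against 121 and 140.5 CPM in 3-month MGT cells at day 3. Ccng1 (542.5 against 630) and Mdm2 (385 against 404 CPM) differed less. Gdf15 (36.8 against 20.8) and Bbc3 (10.8 against 9.23 CPM) were higher in shNT cells. These groups differ in day and hairpin. Gene starts of the knockdown table were not compared with GRCm38, and the source of the gaps was not tested.

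In CFs, most p53 targets were lowest at 3 months, higher at 12 months and between those levels at 24 months. Of the 10 genes, 9 rose and 1 (Btg2) fell in 12-month against 3-month cells, where 13% of all 16466 genes tested rose and 15.5% fell. In 24-month against 3-month cells 7 rose and 1 (Gdf15) fell, against 8.85% and 9.47% of all genes. In 24-month against 12-month cells 1 (Btg2) rose and 7 fell, against 10.8% and 8.07%. The median log2 fold change of the 10 genes was 0.45, 0.32 and -0.20 in these comparisons, beside 0.00 over all genes tested in each. The 3 comparisons share their libraries and are not independent of each other. In bulk libraries a change in RNA per cell and a change in the share of cells that carry it cannot be told apart.

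Trp53 itself moved little. It had 101 and 115 CPM in neonatal, 114 and 108 in 3-month, 127 and 127 in 12-month and 112 and 111 CPM in 24-month cells. The 12-month libraries were the highest 2 and all other ages overlapped. Trp53 rose in 12-month over 3-month cells by a log2 fold change of 0.19 ± 0.05 (SE, adjusted p = 0.00464) and fell in 24-month against 12-month cells (log2 fold change -0.19, adjusted p = 0.00914). Without the second 3-month library the first of these was 0.16 with an adjusted p of 0.0792, and the second was -0.19 with 0.0653 without the second 12-month library and -0.18 with 0.0632 without the second 24-month library. With DESeq2 the second was -0.18 with an adjusted p of 0.0611.

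Mdm2, the ligase that degrades p53, had 247 and 243 CPM in neonatal, 176 and 168 in 3-month, 257 and 283 in 12-month and 231 and 241 CPM in 24-month cells. Every 3-month library lay below every other library, and every 12-month library above. It rose in 12-month over 3-month cells (log2 fold change 0.65 ± 0.05, adjusted p = 6.97e-13) and in 24-month over 3-month cells (0.46, adjusted p = 4.00e-09). In 24-month against 12-month cells Mdm2 fell (-0.19, adjusted p = 0.00201), but was not called without the second 12-month library (-0.12, adjusted p = 0.152). Mdm4, which binds p53 and blocks its transactivation, fell in 12-month against 3-month cells (-0.24, adjusted p = 0.00108), and Hipk2, a kinase that phosphorylates p53, rose (0.34). Of 18 tested regulators of p53 protein, 5 rose and 2 fell in that comparison.

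Ccng1, which encodes cyclin G1, a partner of the phosphatase PP2A, followed the same order at a higher level. Its CPM was 681 and 672 in neonatal, 479 and 461 in 3-month, 751 and 791 in 12-month and 630.2 and 677 in 24-month cells. The 12-month libraries were highest and the 3-month libraries lowest without overlap, while 24-month and neonatal libraries overlapped. In 24-month against 12-month cells Ccng1 fell (log2 fold change -0.24 ± 0.04, adjusted p = 5.29e-05).

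Btg2, an antiproliferative cofactor of mRNA deadenylation, did not follow this order. It had 174 and 172 CPM in neonatal, 120.2 and 122 in 3-month, 109 and 108 in 12-month and 153 and 151 CPM in 24-month cells, so that 12-month libraries were the lowest and no 2 ages overlapped. The fall in 12-month against 3-month cells was small (log2 fold change -0.16 ± 0.05, adjusted p = 0.00672) and was not called without the second 3-month library (-0.15, adjusted p = 0.0674) or the second 12-month library (-0.16, adjusted p = 0.0591). In 24-month cells Btg2 rose over 12-month cells (0.49 ± 0.04, adjusted p = 5.03e-10) and over 3-month cells (0.32, adjusted p = 9.06e-07).

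Of the death effectors, Bax, which permeabilises the outer mitochondrial membrane, had 116 and 105 CPM in neonatal, 92.0 and 96.2 in 3-month, 131 and 128 in 12-month and 114 and 114 CPM in 24-month cells. The 3-month libraries lay below and the 12-month libraries above all others. The log2 fold change was 0.46 ± 0.05 (adjusted p = 1.25e-08) in 12-month over 3-month cells and 0.27 ± 0.05 (adjusted p = 0.000112) in 24-month over 3-month cells. In 24-month against 12-month cells it was -0.18 (adjusted p = 0.00847), and -0.17 without the first 12-month library (adjusted p = 0.0687) and with DESeq2 (adjusted p = 0.0519). Bbc3, whose protein PUMA frees Bax to act, was low: 21.2 and 17.8 CPM in neonatal, 5.49 and 6.80 in 3-month, 9.86 and 7.06 in 12-month and 6.52 and 7.60 CPM in 24-month cells. Neonatal libraries stood apart from all adult ones, while the 24-month values overlapped both other adult ages. Bbc3 was called higher in 12-month over 3-month cells (0.45 ± 0.16, adjusted p = 0.0369), but not without the first 3-month library (0.30, adjusted p = 0.298) or the first 12-month library (0.21, adjusted p = 0.497), nor with DESeq2 (0.46, adjusted p = 0.101). Among 11 tested genes of the BCL2 family outside the 10, 2 rose and 2 fell in that comparison.

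Gdf15, the secreted cytokine, had 26.9 and 26.4 CPM in neonatal, 10.9 and 10.2 in 3-month, 12.9 and 13.4 in 12-month and 6.71 and 8.93 CPM in 24-month cells. The 24-month libraries were the lowest of all and the neonatal ones the highest, and no ages overlapped. It fell in 24-month against 12-month cells (log2 fold change -0.76 ± 0.13, adjusted p = 3.52e-05) and in 24-month against 3-month cells (-0.44, adjusted p = 0.0143). The call against 3-month cells was lost without the first 3-month library (-0.39, adjusted p = 0.112) or the first 24-month library (-0.24, adjusted p = 0.341). The rise in 12-month over 3-month cells (0.32, adjusted p = 0.0486) was lost without any 1 of the 4 libraries, with values of 0.27 to 0.37.

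Sesn2, an inhibitor of mTORC1 signalling, had 65.9 and 62.1 CPM in neonatal, 34.9 and 37.9 in 3-month, 45.1 and 45.4 in 12-month and 44.5 and 49.2 CPM in 24-month cells. The 12- and 24-month libraries overlapped and lay between the others. It rose in 12-month (log2 fold change 0.32 ± 0.07, adjusted p = 0.000652) and 24-month cells (0.37, adjusted p = 0.000138) over 3-month cells. Phlda3, which competes with AKT for membrane lipids, had 104 and 112 CPM in 3-month, 160.4 and 158 in 12-month and 133 and 136 CPM in 24-month cells, and no adult ages overlapped. Zmat3, an RNA-binding protein, had 115 and 110 CPM in 3-month, 171 and 175 in 12-month and 146 and 153 CPM in 24-month cells, again in 3 separate groups. The log2 fold changes in 12-month over 3-month cells were 0.56 ± 0.05 for Phlda3 (adjusted p = 1.01e-10) and 0.62 ± 0.05 for Zmat3 (adjusted p = 5.77e-12).

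**Figure D1:**
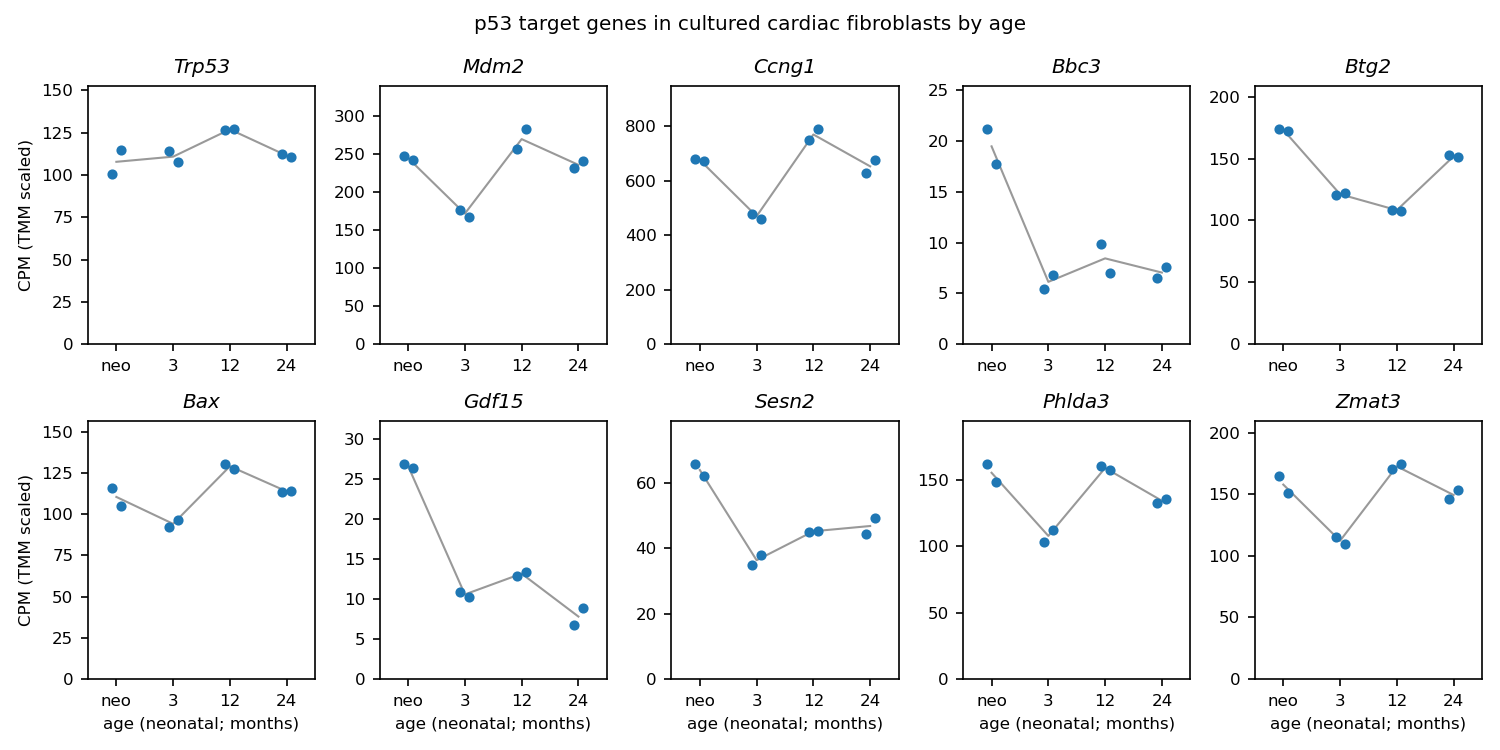
CPM of each of the 10 genes (vertical axes, from 0) in cultured CFs by age (horizontal axes: neonatal, then 3, 12 and 24 months); points are the 2 libraries of an age and lines join their means. Mdm2, Ccng1, Bax, Phlda3 and Zmat3 dip at 3 months and are higher again at 12 months, Btg2 is lowest at 12 months (109 and 108 CPM), and Bbc3, Gdf15 and Sesn2 are highest in neonatal cells.

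Beyond the 10 genes, 21 of 32 other p53 targets rose and 3 fell in 12-month against 3-month cells (median log2 fold change 0.40), and 20 rose and 3 fell in 24-month against 3-month cells (0.36). Cdkn1a, the cyclin-dependent kinase inhibitor p21, had 351 and 347 CPM in 3-month, 560.5 and 588 in 12-month and 531 and 551 CPM in 24-month cells. Its log2 fold changes over 3-month cells were 0.72 ± 0.04 at 12 months and 0.63 ± 0.04 at 24 months. Ephx1, an epoxide hydrolase, and Ak1, an adenylate kinase, rose at 12 months (0.63 and 0.67) and at 24 months (0.47 and 0.49). Eda2r, a member of the TNF receptor family, rose at 24 months (0.63), and Steap3, an endosomal iron reductase, fell at 12 months (-0.94). Genes of other kinds moved in the same libraries. All 20 genes of a list of cell cycle genes fell at 12 months (Cenpf -0.80 and Cdk1 -0.60) and all 20 at 24 months, and their summed level was 1576 and 1534 CPM in 3-month, 991 and 1055 in 12-month and 958 and 848 CPM in 24-month cells.

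Markers of other cells also differed between these ages. Of 12 macrophage markers, 5 rose and 2 fell at 12 months and 8 rose and none fell at 24 months, with summed levels of 162 and 185 CPM in 3-month, 272 and 256 in 12-month and 271 and 257 CPM in 24-month cells. The 8 fibroblast markers summed to 28860 and 29430 CPM in 3-month, 19030 and 18030 in 12-month and 24930 and 25720 CPM in 24-month cells, with 1 up and 6 down at 12 months. Of 12 endothelial markers none rose and 7 fell at 12 months, and 1 rose and 8 fell at 24 months, with summed levels of 723 and 788 CPM in 3-month, 688 and 668 in 12-month and 725 and 711 CPM in 24-month cells. Of 8 epicardial markers 4 fell and none rose at each of these ages, at summed levels of at most 6.70 CPM in every adult library. Cardiomyocyte markers summed to 19.3 to 45.0 CPM in adult libraries, where 1 or 2 of the 10 were at 0, and 6 of them rose at 12 months. The part of these markers in the changes of the p53 targets was not tested.

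Against neonatal cells, the 3-month cells were lower in 9 of the 10 genes, with none higher, where 24.4% of all genes tested fell and 28.0% rose. The largest changes were those of Bbc3 (log2 fold change -1.67 ± 0.14, adjusted p = 2.07e-11), Gdf15 (-1.33 ± 0.11, adjusted p = 3.64e-12) and Sesn2 (-0.82 ± 0.07, adjusted p = 2.51e-12), and the other 6 that fell lay between -0.53 and -0.23. Trp53 was not called (0.04, adjusted p = 0.516). These 9 calls held under each alternative that was run.

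The older adult groups differed from neonatal cells in another mix. In 12-month against neonatal cells 5 rose (Trp53, Mdm2, Ccng1, Bax and Zmat3, by 0.13 to 0.24) and 4 fell (Bbc3 -1.22, Gdf15 -1.01, Btg2 -0.68 and Sesn2 -0.50), against 29.7% and 25.5% of all genes. The 5 small rises became 2 without the second neonatal library and 3 without the first neonatal or the second 12-month library. In 24-month against neonatal cells none rose and 5 fell (Gdf15 -1.77, Bbc3 -1.47, Sesn2 -0.45, Phlda3 -0.21 and Btg2 -0.19), against 27.9% and 26.6% of all genes. The adult comparisons with neonatal cells share the neonatal libraries.

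Other gene lists also differed between 3-month and neonatal cells. Of 32 other p53 targets, 8 rose and 16 fell (median -0.22), led by Steap3 (3.89), the cytokine gene Lif (2.10) and Fdxr, ferredoxin reductase (1.91), among the rises and Eda2r (-1.21) among the falls. Cdkn1a fell (-0.38). Of 18 genes of the integrated stress response, 14 fell and 1 rose, among them Slc7a5, an amino acid transporter (-1.80), and Trib3, a pseudokinase (-2.65). Of the BCL2 family 6 of 11 fell, including Mcl1, a survival factor (-0.46), and 17 of 20 cell cycle genes rose. Neonatal libraries also carried more of other cell types: cardiomyocyte markers summed to 19.3 and 23.4 CPM in 3-month and 1194 and 1102 CPM in neonatal cells, endothelial markers to 723 and 788 CPM against 1787 and 1793 CPM, and macrophage markers to 162 and 185 CPM against 366 and 362 CPM. The part of these cells in the neonatal levels was not tested.

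**Figure D2:**
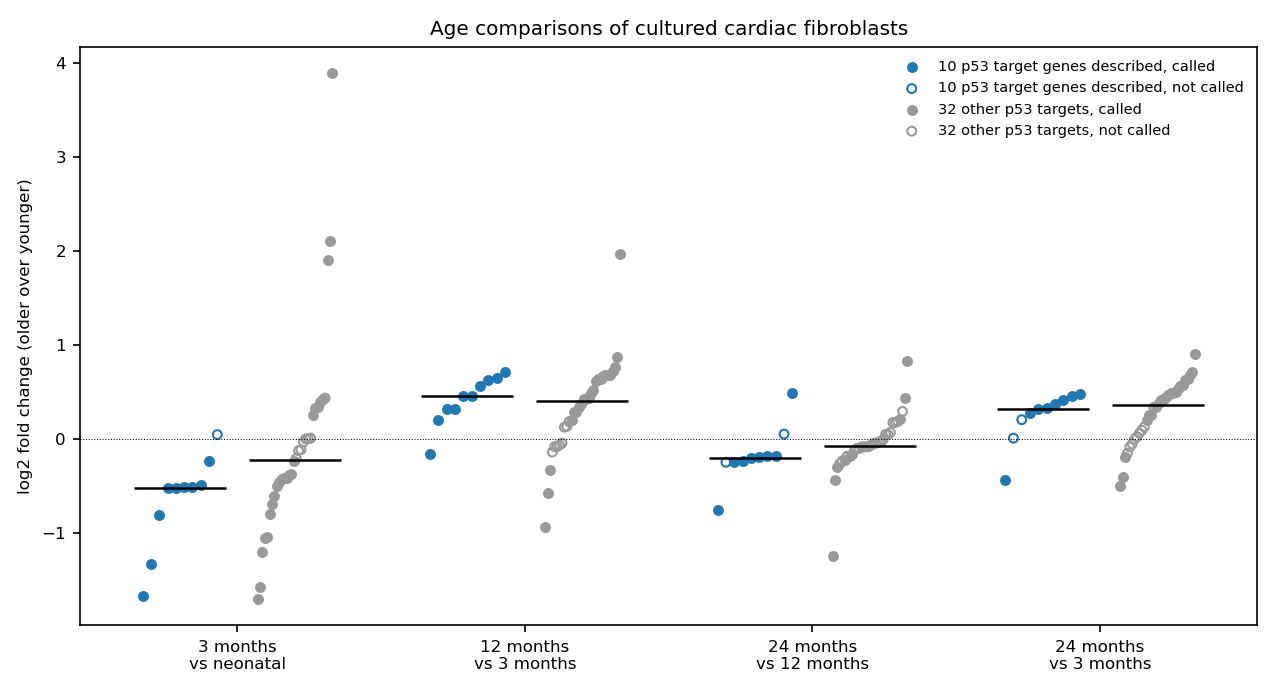
Log2 fold changes (vertical axis, older over younger) of the 10 genes (blue) and of 32 other p53 targets (grey) in 4 age comparisons of CFs; filled points passed an adjusted p of 0.05 and black lines are medians. In 12-month against 3-month cells 9 of the 10 and 21 of the 32 rose, and in 24-month against 12-month cells 7 of the 10 fell. Both lists were chosen with earlier results of these data known.

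The cells that received MGT or LacZ repeat the age comparison in other libraries, with 18-month in place of 12- and 24-month mice. In LacZ cells of 18-month against 3-month mice 4 of the 10 genes rose (Gdf15, Ccng1, Mdm2 and Zmat3) and Btg2 fell, where 10.8% of all 16368 genes tested rose and 12.2% fell. In MGT cells of 18-month against 3-month mice 4 rose (Gdf15, Ccng1, Zmat3 and Phlda3) and Btg2 fell, against 8.12% and 9.29% of all genes.

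Gdf15 had the largest of these changes. In LacZ cells it had 60.8 and 50.9 CPM at 18 months and 19.1 and 27.6 CPM at 3 months, and in MGT cells 38.3 and 45.2 CPM at 18 months and 22.0 and 19.7 CPM at 3 months. The ages did not overlap in either arm. The log2 fold changes were 1.25 ± 0.14 (adjusted p = 4.22e-07) in LacZ cells and 1.00 ± 0.14 (adjusted p = 2.46e-05) in MGT cells. In untreated CFs, Gdf15 was at 0.32 in 12-month and at -0.44 in 24-month over 3-month cells, and both of those calls were lost with DESeq2 (adjusted p = 0.154 and 0.0654) and without single libraries. The 2 tables differ in the ages and treatments they hold, and the difference between them was not tested.

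Ccng1 had 845 and 836 CPM in 18-month and 561 and 622 CPM in 3-month LacZ cells, and 865 and 763 CPM in 18-month and 631 and 629 CPM in 3-month MGT cells. In both arms every 18-month library was above every 3-month library, with log2 fold changes of 0.51 ± 0.08 (adjusted p = 3.06e-05) and 0.37 ± 0.08 (adjusted p = 0.00172). Mdm2 had 475 and 453 CPM in 18-month and 393 and 384 CPM in 3-month LacZ cells (0.26, adjusted p = 0.0172). In MGT cells its change was 0.21 with an adjusted p of 0.0576. The MGT change was called with DESeq2 (0.22) and with only the 4 libraries compared (0.22). With only the 4 libraries compared, the LacZ call was lost (0.25). Zmat3 changed by 0.24 in LacZ cells (adjusted p = 0.0393) and 0.27 in MGT cells (adjusted p = 0.0242), and Phlda3 in MGT cells by 0.26 (adjusted p = 0.0449).

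These smaller calls depended on single libraries. The 4 rises in LacZ cells became 2 without the first 18-month library, where Mdm2 was 0.23 (adjusted p = 0.136) and Zmat3 0.28 (adjusted p = 0.0924). Zmat3 in LacZ cells was also not called without the second 3-month (0.20) or the second 18-month library (0.22). The 4 rises in MGT cells became 2 without the second 3-month or the second 18-month library, where Zmat3 was 0.19 and 0.25, and Phlda3 was not called without the first 3-month library either (0.20). Sesn2, uncalled in MGT cells at 0.32 (adjusted p = 0.0514), was called without the low-count filter (0.32) and with only the 4 libraries compared (0.33). Without the first 18-month library its change was 0.51.

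Btg2 fell in both arms. It had 157 and 176 CPM in 18-month and 233 and 237 CPM in 3-month LacZ cells, and 227 and 240.3 CPM in 18-month and 320.4 and 337 CPM in 3-month MGT cells, with no overlap of ages. The log2 fold changes were -0.50 ± 0.08 (adjusted p = 4.51e-05) and -0.49 ± 0.08 (adjusted p = 6.94e-05). Cdkn1a rose in both arms at 18 months (0.36 in LacZ and 0.34 in MGT cells). Of the 32 other p53 targets 8 rose and 7 fell in LacZ cells, with Ddit4, an mTORC1 inhibitor, at -1.19 and Plk2, a polo-like kinase, at 0.67, and the list's median was 0.04. Fibroblast markers summed to 8101 and 9138 CPM in 18-month and 16720 and 15900 CPM in 3-month LacZ cells, and all 8 fell. Their part in these changes was not tested.

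Against neonatal cells, 8 of the 10 genes fell in 3-month LacZ cells and 6 in 3-month MGT cells, with none higher, where 15.8% and 13.5% of all genes fell and 15.1% and 12.5% rose. The 8 became 6 without either neonatal library, where Btg2 (-0.27 and -0.28) and Zmat3 (-0.18 and -0.27) were not called, and Zmat3 was not called without the second 3-month library either (-0.18). In MGT cells Mdm2 was not called without the second neonatal (-0.27) or the second 3-month library (-0.28). Bbc3 (-0.91 ± 0.16 in LacZ and -1.05 ± 0.16 in MGT cells), Gdf15 (-1.11 ± 0.14 and -1.01 ± 0.14) and Sesn2 (-0.65 ± 0.11 and -0.60 ± 0.11) had the largest falls. In 18-month cells 3 fell in each arm, with none higher, against 18.3% and 16.2% of all genes that fell and 16.7% and 14.4% that rose. Bbc3 and Btg2 were among the 3 in both arms, with Sesn2 in LacZ cells (-0.44) and Phlda3 in MGT cells (-0.27). Phlda3 was also lower in LacZ cells, where 3 alternatives called it. These were RLE in place of TMM scaling (-0.23), a block for replicate number (-0.22) and only the 4 libraries compared (-0.23). Phlda3 in MGT cells was not called without the second neonatal library (-0.21, adjusted p = 0.201) or the first 18-month library (-0.19, adjusted p = 0.213), nor Sesn2 in LacZ cells without the first neonatal library (-0.36, adjusted p = 0.0646).

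In MGT against LacZ cells, Btg2 was the only one of the 10 genes called at each age. At each age RNA of the 3 factors was higher in MGT cells. The log2 fold changes of MGT over LacZ were 3.51, 4.44 and 4.17 for Mef2c, 0.84, 0.98 and 1.06 for Gata4 and 6.78, 8.15 and 8.80 for Tbx5 in neonatal, 3-month and 18-month cells. Counts per gene do not separate the transgenes from the cells' own transcripts. Of the 10 genes, 1 rose and none fell in neonatal cells (at an unadjusted p under 0.05, 1 and 0), where 4.26% of all genes rose and 3.24% fell. In 3-month cells 1 rose and none fell (at an unadjusted p under 0.05, 1 and 2), against 8.99% and 8.39% of all genes. In 18-month cells 1 rose and 1 fell, against 8.52% and 8.05%. The median log2 fold change of the 10 genes was -0.03, -0.04 and 0.02 in neonatal, 3-month and 18-month cells, beside -0.01, -0.01 and 0.01 over all genes.

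Btg2 was the gene that rose at each age. It had 356 and 367 CPM in MGT and 286 and 282 CPM in LacZ neonatal cells, 320.4 and 337 CPM in MGT and 233 and 237 CPM in LacZ 3-month cells, and 227 and 240.3 CPM in MGT and 157 and 176 CPM in LacZ 18-month cells. All 6 MGT libraries lay above the LacZ libraries of their age. The log2 fold changes were 0.35 ± 0.08 (adjusted p = 0.00467), 0.48 ± 0.08 (adjusted p = 6.38e-05) and 0.49 ± 0.08 (adjusted p = 0.000104). The neonatal call was lost without the first (0.36, adjusted p = 0.0628) or second LacZ library (0.34, adjusted p = 0.0910) or the second MGT library (0.33, adjusted p = 0.0832). As interaction terms, the MGT effects on Btg2 differed between ages by 0.13 ± 0.11 (3 months minus neonatal, adjusted p = 0.689) and 0.14 ± 0.11 (18 months minus neonatal, adjusted p = 0.648).

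No member was called in any of the 3 interaction contrasts (edgeR, and none at an unadjusted p under 0.05), where 2.28% and 1.41% (3 months minus neonatal), 2.03% and 0.788% (18 months minus neonatal) and 1.56% and 0.782% (18 minus 3 months) of all genes were called up and down. Without the second LacZ library of 3-month cells, 1 member was called down in the last of these.

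Gdf15 was the gene that fell at 18 months, with 38.3 and 45.2 CPM in MGT and 60.8 and 50.9 CPM in LacZ cells (log2 fold change -0.42 ± 0.13, adjusted p = 0.0315). It was not called without the first LacZ library (-0.28, adjusted p = 0.326) or the first MGT library (-0.29, adjusted p = 0.283). In 3-month cells it had 22.0 and 19.7 CPM in MGT and 19.1 and 27.6 CPM in LacZ cells, and the LacZ values enclosed the MGT values (-0.17, adjusted p = 0.50). There the change was -0.41 (adjusted p = 0.0157) without the first LacZ library and 0.14 without the second. Bax, which had 147 and 148 CPM in MGT and 154 and 192 CPM in LacZ 3-month cells, was at -0.23 (adjusted p = 0.0969), and at -0.39 (adjusted p = 0.000370) without the first LacZ library. That library alone moved the genes called at 3 months to 4476, against 2846 with all libraries.

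Other targets moved in both directions. Of the 32, 2 rose and none fell in neonatal, 6 rose and 8 fell in 3-month, and 8 rose and 5 fell in 18-month MGT against LacZ cells. In 3-month cells Ddit4 fell (-0.85), and Plk2 (0.69), Ddit4l, a relative of Ddit4 (0.83), and Lif (0.59) rose. Cdkn1a rose in 3-month MGT cells (0.23 ± 0.08, adjusted p = 0.0330) and had values of 0.14 in neonatal and 0.21 in 18-month cells that were not called. Cell cycle genes fell in 0, 9 and 17 of 20 cases in neonatal, 3-month and 18-month cells. Cardiomyocyte markers summed to 1305 and 1946 CPM in MGT and 346 and 299.6 CPM in LacZ neonatal cells, 805 and 879 against 9.98 and 10.1 CPM at 3 months, and 744 and 813 against 10.8 and 7.59 CPM at 18 months, and 8, 7 and 7 of 10 rose. Their part in the rise of Btg2 was not tested.

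**Figure D3:**
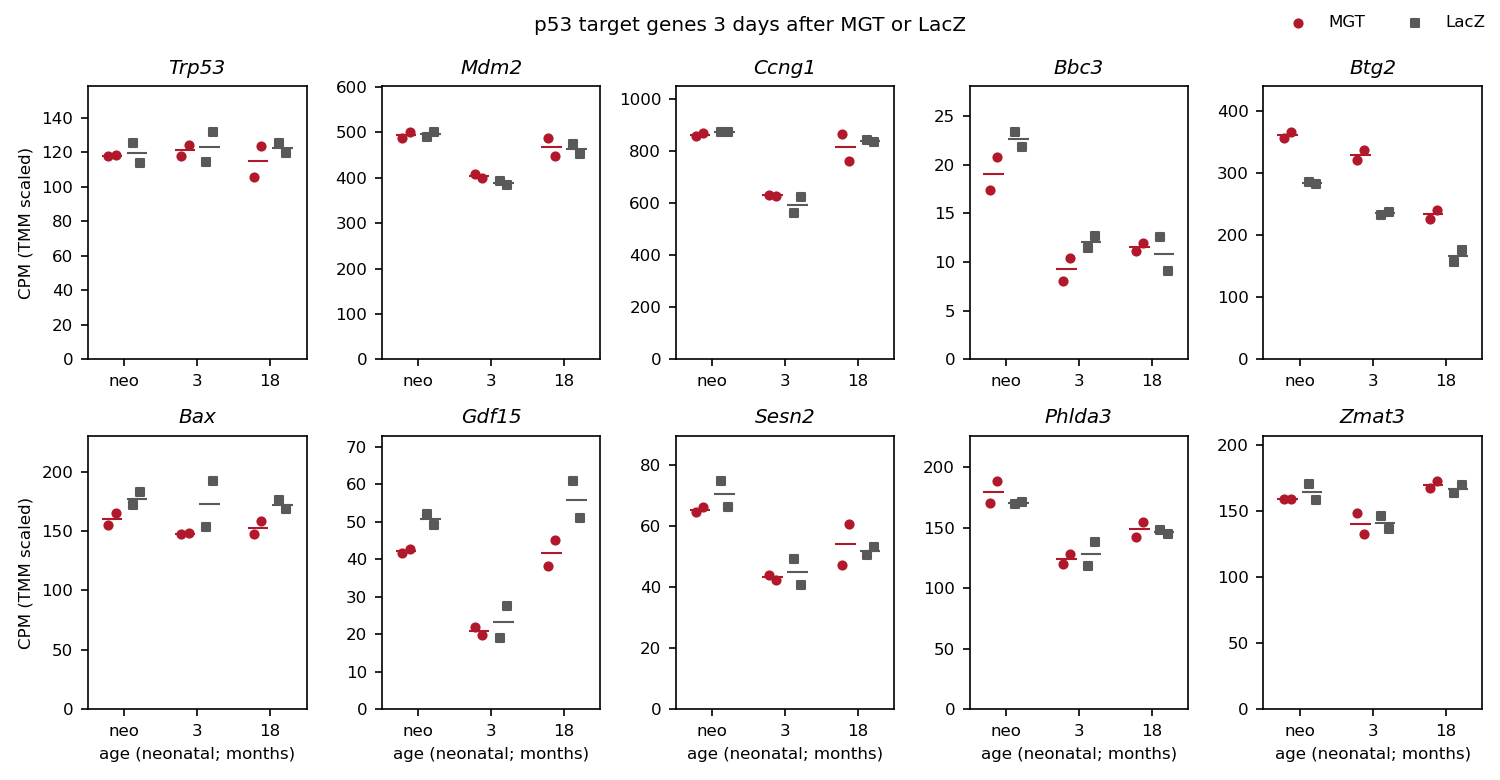
CPM of each of the 10 genes (vertical axes, from 0) in cells 3 days after MGT (red circles) or LacZ (grey squares) by age (horizontal axes: neonatal, 3 and 18 months); points are libraries and bars their means. Btg2 lies higher in MGT cells at every age and falls towards 18 months in both arms, and Gdf15 lies higher at 18 months than at 3 months in both arms. For Trp53, Mdm2, Ccng1, Bbc3, Bax, Sesn2, Phlda3 and Zmat3 no age was called between MGT and LacZ.

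Nr4a3 overexpression in neonatal cells gave 175 and 178 CPM of Nr4a3 in OENr4a3 and 2.49 and 1.86 CPM in OECtrl cells (log2 fold change 6.35 ± 0.16). None of the 10 p53 genes was called up and 2 were called down, where 11.9% of all 15029 genes tested rose and 10.8% fell (at an unadjusted p under 0.05, 2 were up and 4 down). The 2 were Bax and Btg2. The median of the 10 was -0.01, the same as over all genes. The labels place these cells at day 10, while the study's design text gives another day.

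Bax had 121 and 124 CPM in OENr4a3 and 147 and 181 CPM in OECtrl cells, and Btg2 had 67.7 and 68.8 CPM in OENr4a3 and 82.6 and 90.7 CPM in OECtrl cells. For both genes every OENr4a3 library lay below every OECtrl library, and the OECtrl libraries of Bax were far apart. The log2 fold changes were -0.41 ± 0.12 (adjusted p = 0.0358) for Bax and -0.35 ± 0.10 (adjusted p = 0.0420) for Btg2. Neither was called without the first (-0.39, adjusted p = 0.315, and -0.32, adjusted p = 0.425) or the second OENr4a3 library (-0.42, adjusted p = 0.265, and -0.35, adjusted p = 0.392).

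Among the uncalled genes, Sesn2 had 52.9 and 52.97 CPM in OENr4a3 and 44.8 and 39.0 CPM in OECtrl cells (0.34 ± 0.12, adjusted p = 0.0593), and Zmat3 had 155 and 161 against 140 and 124 CPM (0.26 ± 0.10, adjusted p = 0.0956). Gdf15 had 9.80 and 10.4 CPM in OENr4a3 and 12.5 and 14.4 CPM in OECtrl cells (-0.42 ± 0.15, adjusted p = 0.0770), and Phlda3 had 112 and 108 against 121 and 153 CPM (-0.32 ± 0.12, adjusted p = 0.0928). In each of these 4 genes the groups did not overlap. Ccng1, with 1014 and 992 CPM in OENr4a3 and 966 and 1012 CPM in OECtrl cells, overlapped, as did Mdm2, Trp53 and Bbc3. The OECtrl replicates stood far apart, and without the first OECtrl library 2 members were called up (Sesn2 0.45 and Zmat3 0.36) and 4 down (Gdf15 -0.51 and Phlda3 -0.47 beside Bax and Btg2), with 7704 genes called in all, against 3410 with all 4 libraries. Without the second OECtrl library Sesn2 (0.24) and Zmat3 (0.18) were called up.

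Of the 32 other p53 targets, 2 rose and 5 fell in OENr4a3 cells, among them Ddit4l (-1.35), Lif (-0.63) and Eda2r (0.48). Cdkn1a had 478 and 456 CPM in OENr4a3 and 465 and 513 CPM in OECtrl cells, which overlapped. Of the regulators 5 rose and 2 fell: Atm, the DNA damage kinase (1.05), and Hipk2 (1.54) rose, and Cdkn2a, whose ARF product inhibits Mdm2, fell (-1.51). Of 20 cell cycle genes 11 fell, including Cdk1 (-0.78) and Ccna2 (-0.80). Epicardial markers summed to 474 and 441 CPM in OENr4a3 and 985 and 1055 CPM in OECtrl cells (6 of 8 fell), macrophage markers to 668 and 645 against 1009 and 991 CPM (6 of 12 fell), and Xist to 483 and 484 against 282 and 224 CPM. Their part in the values above was not tested.

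Knockdown of Nr4a3 in 3-month MGT cells gave 0.431 and 0.744 CPM of Nr4a3 in shNr4a3 and 8.84 and 8.18 CPM in shNT cells (log2 fold change -3.85 ± 0.27). Of the 10 p53 genes, 5 rose (Bbc3, Btg2, Ccng1, Mdm2 and Phlda3) and 2 fell (Gdf15 and Trp53). Among these libraries 27.9% of all 18045 genes tested rose and 26.7% fell, so calls were frequent throughout. The median of the 10 was 0.14, beside 0.01 over all genes.

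Trp53 had 19.0 and 14.7 CPM in shNr4a3 and 24.2 and 24.9 CPM in shNT cells, with a log2 fold change of -0.54 ± 0.13 (adjusted p = 0.00326). Mdm2 had 515 and 477 CPM in shNr4a3 and 387 and 382 CPM in shNT cells (0.37 ± 0.08, adjusted p = 0.00182). In neither gene did the groups overlap, and the pair moved in opposite directions.

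Ccng1 had 753 and 715 CPM in shNr4a3 and 540 and 545 CPM in shNT cells (0.44 ± 0.08, adjusted p = 0.000438). Btg2 had 115 and 106 CPM in shNr4a3 and 75.8 and 80.5 CPM in shNT cells (0.50 ± 0.08, adjusted p = 0.000257). Both proliferation genes were higher in every shNr4a3 library than in any shNT library. Bbc3 had 20.9 and 21.7 CPM in shNr4a3 and 9.63 and 12.0 CPM in shNT cells (0.97 ± 0.13, adjusted p = 3.95e-05). Bax, on the same death pathway, had 72.2 and 68.3 CPM in shNr4a3 and 77.0 and 76.9 CPM in shNT cells and was not called (-0.13, adjusted p = 0.212).

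Gdf15 had the largest change of the 10, with 11.6 and 9.62 CPM in shNr4a3 and 34.6 and 39.0 CPM in shNT cells, a log2 fold change of -1.79 ± 0.13 (adjusted p = 8.64e-08) with no overlap. Sesn2 had 20.01 and 22.7 CPM in shNr4a3 and 19.7 and 22.2 CPM in shNT cells, which overlapped (0.03, adjusted p = 0.854). Phlda3 had 120.2 and 107 CPM in shNr4a3 and 98.5 and 92.8 CPM in shNT cells (0.25 ± 0.09, adjusted p = 0.0272). This last call was lost without either shNT library (0.28, adjusted p = 0.102, and 0.20, adjusted p = 0.246) or the first shNr4a3 library (0.17, adjusted p = 0.0750). Zmat3 had 19.7 and 19.0 CPM in shNr4a3 and 23.1 and 22.4 CPM in shNT cells (-0.23, adjusted p = 0.0883).

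**Figure D4:**
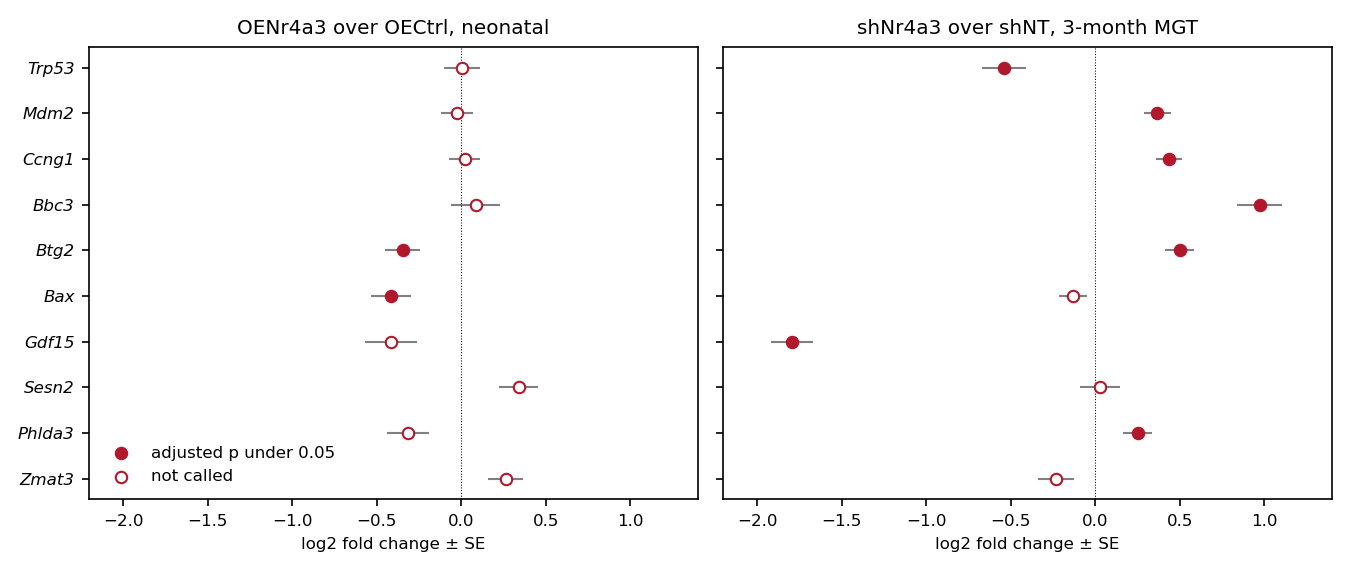
Log2 fold changes ± SE (horizontal axes) of the 10 genes for OENr4a3 over OECtrl in neonatal cells (left) and shNr4a3 over shNT in 3-month MGT cells (right), from 2 libraries a group; filled points passed an adjusted p of 0.05. Only Bax and Btg2 passed on the left, while on the right Bbc3, Btg2, Ccng1, Mdm2 and Phlda3 rose and Gdf15 (-1.79) and Trp53 fell.

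Other lists were also called in part under knockdown. Of the 32 other p53 targets 14 rose and 11 fell: Plk2 (1.41) and Ak1 (1.30) rose, and Trp53i11 (-3.52) and Ephx1 (-1.38) fell. Cdkn1a rose by 0.31 ± 0.08 (adjusted p = 0.00718). Of the regulators 3 rose and 5 fell, with Mdm4 at -1.47 and Atm at -0.99, and of 10 tested BCL2-family genes 3 rose and 5 fell, with the BH3-only gene Bid at -2.25 and the survival gene Bcl2l1 at -1.31. Of 18 genes of the integrated stress response 13 rose and 4 fell, including Mthfd2, of folate metabolism (1.77), and Phgdh, of serine synthesis (1.14). Of 20 cell cycle genes 17 fell, with Cenpf at -1.62 and Ccnb1 at -2.72. The reprogramming factors themselves were lower in shNr4a3 cells (Mef2c -0.56, Gata4 -0.37 and Tbx5 -0.37), and cardiomyocyte markers summed to 7559 and 6689 CPM in shNr4a3 and 12430 and 10720 CPM in shNT cells, although 5 of these 10 markers rose and 2 fell. The part of these differences in the members' changes was not tested.

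Single cells were compared between 24-month and neonatal MGT-treated cells as levels only, since each age was 1 library and no test between ages was possible. After filtering, 5773 of 6796 barcodes with a median of 20771 UMIs remained for 24 months and 3828 of 4816 with a median of 13960 UMIs for neonatal cells, and 11 barcodes occurred in both libraries (8 among the kept barcodes). Doublets were not removed. Summed over all kept cells, 9 of the 10 genes were lower in 24-month cells, where 52.9% of 15580 genes had a ratio under 1. Past 1.5-fold, 4 were lower and none higher, against 15.8% and 14.9% of all genes. The median log2 ratio of the 10 was -0.48, beside -0.03 over all genes. Intervals below are exact 95% intervals and cover counting error only. Shares of all genes cover those with at least 10 UMIs in each library among the cells compared. A member was counted with any UMI in each.

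Bbc3 had 9.80 CPM (interval 9.31 to 10.3) in 24-month and 19.6 CPM (18.8 to 20.4) in neonatal cells, a ratio of 0.501 (0.469 to 0.535). Gdf15 had 49.6 against 90.1 CPM (ratio 0.551), Btg2 188 against 339 CPM (0.556) and Phlda3 210.4 against 323 CPM (0.652). These 4 were the genes past 1.5-fold. Bax had 397 CPM in 24-month and 566 CPM in neonatal cells (0.700), Ccng1 222 against 305 CPM (0.730), Mdm2 113 against 142 CPM (0.799), Sesn2 17.2 against 21.2 CPM (0.812) and Trp53 54.1 against 65.8 CPM (0.822). Zmat3 was the exception, with 49.1 CPM in 24-month and 43.2 CPM in neonatal cells (1.14, interval 1.10 to 1.18). After thinning every cell to 2000 UMIs, which left out 1225 of the 24-month and 826 of the neonatal cells, the ratio was 0.578 for Bbc3, 0.604 for Gdf15 and 1.04 for Zmat3. Nr4a3 had 7.49 CPM in 24-month and 2.23 CPM in neonatal cells.

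The libraries differed in the cells they held. Summed cardiomyocyte markers were 213 CPM in 24-month and 10670 CPM in neonatal cells, macrophage markers 3802 against 1264 CPM and fibroblast markers 9085 against 4702 CPM, while cell cycle genes summed to 257 against 255 CPM. The largest cluster of each age among those with all 8 fibroblast markers detected was almost all of that age: cluster 10 held 2610 24-month and 13 neonatal cells, and cluster 0 held 9 24-month and 1121 neonatal cells. Gdf15 was at 40.2 CPM in the 24-month cells of cluster 10 and at 93.8 CPM in the neonatal cells of cluster 0. Cluster 1, led by sarcomere genes, held 553 neonatal cells with 542 CPM of Btg2, above the 339 CPM of all neonatal cells. A cluster of 130 24-month cells led by interferon-induced genes had 12.7 CPM of Gdf15. These clusters were rebuilt here, and the part of the cell mix in the whole-library ratios was not tested.

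Cells of both ages were compared in 5 clusters. Cluster 3, led by cell cycle genes (Ube2c, Pclaf and Cenpf among them), held 161 24-month and 111 neonatal cells. There, all 10 genes were lower in the 24-month cells, and 7 of them past 1.5-fold, against 12.6% of 11256 genes past that fold downward and 54.5% with a ratio under 1. Gdf15 had 143 CPM in 24-month and 295 CPM in neonatal cells (ratio 0.484, interval 0.448 to 0.522), Mdm2 188 against 364 CPM (0.515), Ccng1 218 against 420 CPM (0.520) and Bax 402 against 770.0 CPM (0.522). Mdm2 and Gdf15 stood above their whole-library levels in this cluster at both ages. Zmat3 differed least, with 43.5 CPM in 24-month and 51.0 CPM in neonatal cells (0.853).

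Macrophage-like cells (cluster 11), in which all 12 macrophage markers were detected, numbered 822 at 24 months and 201 in neonatal cells. In them the members did not follow the whole library: 4 of the 10 had a ratio under 1, against 45.6% of 10927 genes, and past 1.5-fold 1 was higher and none lower, against 13.3% and 9.94%. Zmat3 had 30.3 CPM in 24-month and 19.7 CPM in neonatal cells (1.54, interval 1.26 to 1.89) and Gdf15 81.8 against 56.4 CPM (1.45, 1.29 to 1.64). Trp53 (ratio 1.00) and Mdm2 (0.997) were level, and Sesn2 was at 12.2 against 16.04 CPM (0.763). The other 3 clusters had median depths of 1715 to 5094 UMIs per cell, and intervals were wide. In cluster 8 (183 24-month and 83 neonatal cells), 9 of the 10 genes had a ratio under 1, against 60.2% of 5798 genes, 5 were past 1.5-fold downward against 20.8%, and Btg2 was at 1.60 (1.36 to 1.89). In cluster 2 (65 and 1339 cells), 6 of 9 genes that could be compared had a ratio under 1, against 41.5% of 2530 genes. Past 1.5-fold downward were 5, against 8.62%, and of these only the interval of Btg2 (0.29 to 0.82) left out 1. In cluster 5 (1662 and 71 cells), 4 of the 10 had a ratio under 1, against 34.9% of 3351 genes. Past 1.5-fold upward were 4, against 27.8%, and of these the interval of Bbc3 (0.46 to 114) enclosed 1. Members under 10 UMIs in a library, unlike other genes, were kept in these counts. Counts and shares there rest on unlike thresholds.

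**Figure D5:**
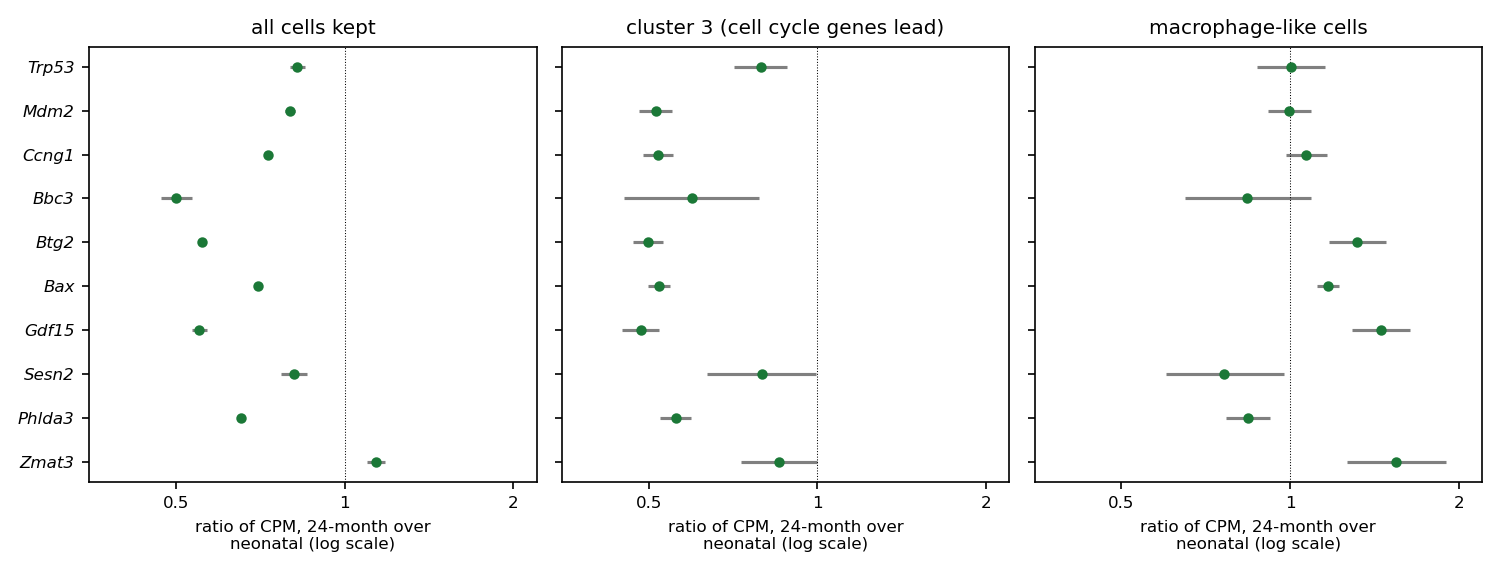
Ratios of CPM in 24-month over neonatal MGT-treated cells (horizontal axes, log scale) for the 10 genes over all kept cells (left), cluster 3 (middle) and macrophage-like cells (right), with exact 95% intervals for counting error in 1 library per age. All but Zmat3 lie under 1 on the left, all 10 lie under 1 in the middle (0.484 to 0.853), and on the right Zmat3 (1.54) and Gdf15 (1.45) lie above 1.

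Over the 20 bulk comparisons, which share libraries, the members differed in how often they were called. Btg2 was called in 16, of which 6 were rises, and Gdf15 in 12, of which 3 were rises. Trp53 was called in 4. Gdf15 had the widest range of log2 fold changes, from -1.79 (shNr4a3 over shNT) to 1.25 (18-month over 3-month LacZ cells), and Trp53 the narrowest range of values, from -0.54 to 0.24.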

How the data were processed

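RNA was measured by bulk RNA-seq in 28 libraries and by single-cell RNA-seq in 2. The deposited values are raw counts per gene (bulk) and UMI counts per gene and cell (single cells). Per the submitters' processing notes, Trimmomatic 0.36, Subread 1.5.1 with featureCounts, SAMtools and the mm10 build were named, with no order or settings. By the coordinate columns of the deposited tables, however, those of CF ages and of overexpression share few gene starts with GRCm38 (2.85% and 2.88% of shared genes), so no coordinates were taken from them. Per the labels' protocols a stranded kit with rRNA depletion was used, although the molecule is labelled polyA RNA. Beside the knockdown counts, 4 count columns matching no label were not used. Columns named for 13 months were taken as the 12-month group, 15 months as the 18-month group, GFP as OECtrl and D3 as MGT; these names differ from the labels.

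Each table was filtered with filterByExpr, scaled by TMM and fitted with edgeR 4.0.16 (R 4.3.3) with 1 coefficient per group and a robust quasi-likelihood test. P-values were adjusted over all genes of the table by Benjamini-Hochberg, and calls are at 0.05. SE is the log2 fold change divided by the square root of its F statistic. The model was tested on simulated data. Alternatives were DESeq2 1.42.0, RLE scaling, no filter, a replicate block, only the 4 libraries compared, and leaving out each library.

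Cells under 500 genes or over 20% mitochondrial UMIs were left out, and the rest were clustered with scanpy 1.11.5 (2000 variable genes, 50 components, 15 neighbours, resolution 0.5). UMIs were summed per library and cluster, and clusters were named from marker lists.

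The members were given as a list, and the members and the other lists were chosen with earlier results of these data known, including p53 target counts in the CF ages, which are no independent support. From each other list, up to 4 genes with the smallest p per comparison were named. Same-numbered libraries' deviations correlated at -0.078 to 0.069, so no pairing by replicate number was seen. Paired preparation that left little shared deviation would look the same.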

Additional observations from a re-analysis of the deposited data

How the results depend on the processing

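Members called in a comparison, or uncalled but named for it, were followed across the alternatives, in 990 combinations. Of these, 896 kept direction and call, 75 lost the call, 18 gained one and 1 reversed. Other uncalled members were not followed, so gains among them are not counted here. The reversal was Gdf15 in 3-month MGT against LacZ cells, at -0.41 without the first and 0.14 without the second LacZ library. With DESeq2 the count that fell in 24-month against 3-month CFs was 0, the count that rose in 12-month against neonatal CFs was 3, and the count that fell with OENr4a3 was 1. Without a filter 1 rose with OENr4a3. With only the 4 libraries compared, 1 fell in neonatal MGT against LacZ cells and 2 rose in 18-month against 3-month LacZ cells. DESeq2 also ended the calls of Bbc3 and Gdf15 in 12-month against 3-month CFs and of Trp53 and Bax in 24-month against 12-month CFs. The causes were not tested.

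The deviations of same-numbered libraries showed no pairing, but they cannot tell whether the libraries were prepared in pairs. With the replicate block 1 member fell with OENr4a3, where Btg2 was -0.34 (edgeR adjusted p = 0.0661), and Gdf15 in 12-month against 3-month CFs was 0.31 (edgeR adjusted p = 0.0580).

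Leaving out each library gave 0 to 1 falls in 12-month and in 24-month against 3-month CFs, and 2 to 5 rises in 12-month against neonatal CFs. For MGT against LacZ it gave 0 to 1 rises in neonatal, 0 to 2 falls in 3-month and 0 to 1 falls in 18-month cells, and 0 to 1 falls in the difference between 18 and 3 months. It gave 2 to 5 rises in 18-month against 3-month LacZ and MGT cells, and 0 to 2 rises and 0 to 4 falls with OENr4a3. A lone library was then assumed to vary like the others.

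Genes called in all moved by over 1.5 times in these cases (all libraries in brackets): 24-month against 12-month CFs 1872 (3110), MGT against LacZ 688 to 1977 (1229) in neonatal, 1732 to 4476 (2846) in 3-month and 1452 to 1520 (2713) in 18-month cells, 18-month against 3-month LacZ cells 2116 to 2166 (3769), 3-month against neonatal MGT cells 2758 (4264), 18-month against 3-month MGT cells 1367 to 1763 (2850), the differences of the MGT effect 363 to 1760 (605), 241 to 293 (461) and 159 to 1012 (383), and OENr4a3 1197 to 7704 (3410). With 2 libraries per group, and 1 per age in single cells, small differences were not resolved.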
